A study of Homo sapiens with 9 samples.

Results

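PR2 is a ponatinib-resistant derivative of LC-2/ad, a long-established line of human lung adenocarcinoma cells that carries a CCDC6-RET fusion, and its RNA was compared with that of the parental line. Ponatinib inhibits many kinases, RET among them. The comparison used 6 of the series' 9 sequencing libraries, namely PR2 A, B and C and parental A, B and C. The 3 libraries of PR1, another resistant derivative, are given beside them where they add a value. PR2 and PR1 cells had been cultured in 200 nM ponatinib, and the labels state no drug for the parental cells, so resistance and drug exposure cannot be told apart in any value below. The labels do not say whether PR2 is 1 clone, or whether the letters are separate cultures, so the p-values reflect the scatter among these libraries alone, which may be technical. Levels are in FPKM, mapped fragments scaled for transcript length and library size, and differences are on the log2(FPKM + 1) scale. A row of the table was tested where at least 3 of the 9 libraries reached 1 FPKM, which 12011 of 24069 rows did.

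As background, an active RET kinase signals through RAS to the kinases RAF, MEK and ERK. ERK output includes its own brakes, the DUSP phosphatases and the Sprouty and SPRED proteins, and the ETV transcription factors. Lung adenocarcinoma cells often keep parts of the programme of airway and alveolar epithelium, in which factors such as FOXA1, SOX2 and SPDEF maintain genes for surfactant, mucins and secreted defence proteins. Cells under tension on a matrix build actin cables, caveolae and integrin contacts, and the coactivators YAP and TAZ act with TEAD factors in that state.

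The 6 libraries summed to 573321 to 686460 FPKM, held 11348 to 11629 rows at 1 FPKM or more, and had 7.54% to 9.35% of the sum in their 10 highest rows. Relative depth was estimated from the most common ratio between a library's very low values and those of parental A. It was 0.763 to 0.94, with parental A set to 1. Across rows, libraries correlated at 0.964 to 0.976 within the parental group and at 0.961 to 0.985 within PR2. Parental A lay closer to PR2 (0.928 to 0.932) than parental B and C did (0.883 to 0.912). Summed levels of 9 lung epithelial markers were 5572 to 6598 FPKM in parental and 6866 to 8875 in PR2 libraries, and of the 9 only SFTPB was below 1 FPKM in PR2, at 0.0204 to 0.0352. Among 8 fibroblast markers COL1A1 and ACTA2 alone passed 1 FPKM, while COL1A2, COL3A1 and DCN were at 0.0177 or less in every library. Among blood markers CD14 was at 3.43, 9.0 and 6.07 FPKM in parental and at 0.666, 0.957 and 1.01 in PR2, with PTPRC at 0.0196 or less and HBB at 0 throughout.

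In PR2, 2814 rows (23.4% of those tested) differed from parental cells at a limma adjusted p under 0.05, with 1633 higher (13.6%) and 1181 lower (9.83%). A difference of at least 2-fold was found for 1144 rows (9.52%), with 649 higher (5.4%) and 495 lower (4.12%). At 8-fold or more there were 31 higher and 59 lower rows. The median log2 difference over all rows tested was 0.03. Of the 1144 rows, 1139 differed in the same direction within each letter and 1135 had groups that did not overlap. Both counts follow largely from the rule that picked these rows from the same libraries, so they add no support. Low rows changed most often, with 30.5% called below 5 FPKM, 21.5% from 5 to 20, 19.7% from 20 to 100 and 18.4% above. Parental A was the highest parental library in 464 of the 649 rows that were 2-fold higher, and the lowest in 287 of the 495 that were 2-fold lower. Without parental B the count of changed rows was 1870 and without PR2 C it was 1805, and without the 3 A libraries it was 3389. With median-of-ratios scaling 1515 rows were higher and 1351 lower, and with quantile normalization 1561 and 1389. The excess of higher over lower rows was smaller under both than in the main fit. A few rows had to differ through the filter alone: 86 reached 1 FPKM only in PR2 libraries, of which 82 were called higher, and 99 only in parental ones, of which 96 were called lower. Of the genes tested below, ADAMTS1 and MYLK belong to the first kind and CAPN13, BPIFB1, IGFBP2, KRT23, ALDH3B2, S100A8 and FOXF2 to the second, so their levels are a description and their p-values carry no weight. Unless another value is given, each gene named below as changed from parental cells kept that call under each of the 19 alternative settings that gave it a value. Each count from a gene list below is to be read against 13.6% of all rows higher and 9.83% lower. A count near those shares sets no list apart. The lists and their members were chosen with earlier results of these data known. A count above those shares can come from that choice and is a description only.

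**Figure D1:**
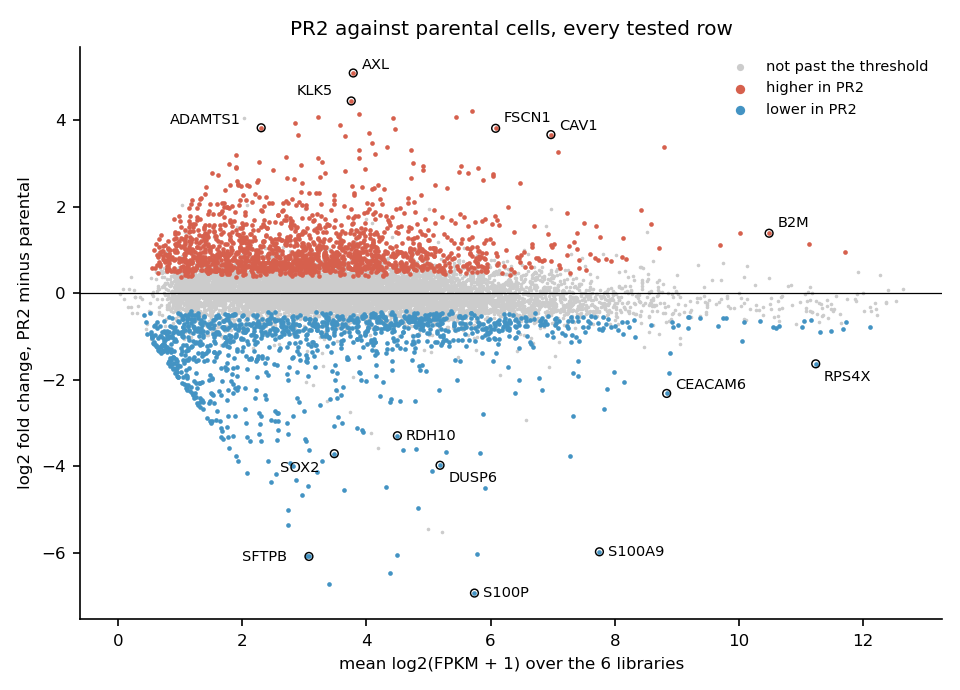
Each point is 1 tested row, with its mean log2(FPKM + 1) over the 6 libraries on the x axis and its log2 fold change (PR2 minus parental) on the y axis. Red and blue points passed the limma threshold as higher (1633) or lower (1181) in PR2, grey points did not, and the falls reach further than the rises (S100P at −6.93, AXL at 5.10).

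Among the genes that fell most were several that encode secreted proteins. S100P, a secreted calcium-binding protein, had 343, 816 and 729 FPKM in parental A, B and C, against 3.46, 3.22 and 5.06 in PR2. The chemokine gene CXCL17 was at 359, 642 and 378 FPKM in parental and at 0.47, 12.2 and 15.5 in PR2 cells. RNASE1, a secreted ribonuclease, went from 233, 490 and 199 FPKM to 5.54, 14.9 and 18.5. PR2 A was the lowest of the PR2 libraries for CXCL17 and RNASE1. In all of these genes every PR2 library lay below every parental library, as the rule that picked them required. Their log2 fold changes were −6.93 ± 0.30 (SE), −6.02 ± 0.81 and −4.49 ± 0.56, with limma adjusted p of 1.1e-06, 0.00059 and 0.00037. GCNT3, which branches mucin sugar chains, fell by 4.47 on the log2 scale and PADI1, which converts arginine to citrulline in proteins, fell by 4.55. TMEM156, a membrane protein, was tight in both groups, at 27.9 to 36.1 FPKM in parental and 0.53 to 0.84 in PR2 libraries.

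PR1 kept several of these genes that PR2 did not. Against parental cells TMEM156 had a log2 difference of 0.58 in PR1 (limma adjusted p = 0.22), and PR2 lay below PR1 by −4.88 (limma adjusted p = 1.1e-05). For RNASE1 the PR1 difference was −0.30 (limma adjusted p = 0.77) and PR2 lay below PR1 by −4.19 (limma adjusted p = 0.00079). S100P was at −0.91 in PR1 (limma adjusted p = 0.067) and PR2 differed from PR1 by −6.02 (limma adjusted p = 5.2e-06). The protease gene CAPN13 went down in both derivatives, by −5.35 in PR2 and −4.89 in PR1.

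**Figure D2:**
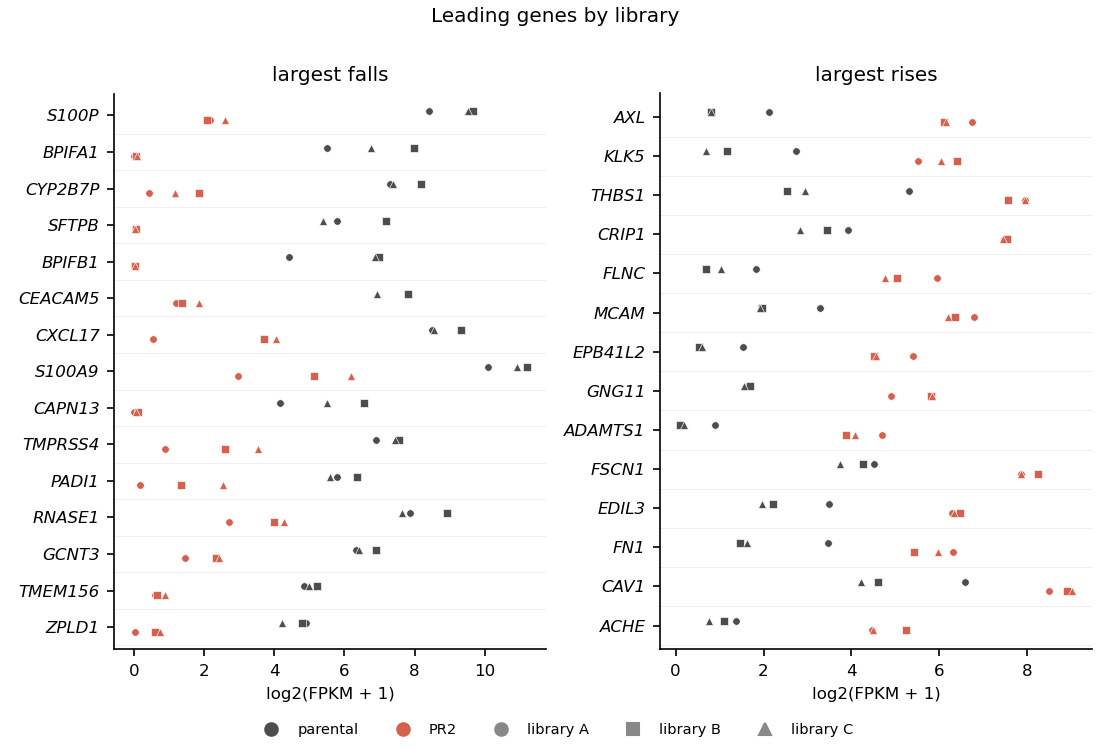
Dots give log2(FPKM + 1) of single libraries for 15 genes with the largest falls and 14 with the largest rises, with grey for parental, red for PR2 and the symbol for the library letter. In every gene the groups do not overlap, as the rule that picked the genes required. Among the rises parental A (circles) is often the parental library nearest to PR2, as for KLK5 and CAV1.

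The leading rises after AXL included genes of proteases, matrix, adhesion and the cytoskeleton. KLK5, a secreted kallikrein protease, was at 5.67, 1.26 and 0.60 FPKM in parental libraries and at 44.8, 83.0 and 64.8 in PR2. ADAMTS1, a matrix metalloprotease, was nearly silent in parental cells (0.87, 0.067 and 0.13 FPKM) and stood at 25.1, 13.7 and 15.9 in PR2. Parental A was the highest parental library for both genes. It lay below every PR2 library, as the rule that picked these genes required. Their log2 fold changes were 4.45 ± 0.44 (SE) and 3.83 ± 0.25, with limma adjusted p of 9.0e-05 and 9.2e-06, and ADAMTS1 passed the filter on low values only through the PR2 libraries.

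In PR1 neither gene passed the test against parental cells (log2 differences −1.20 and −0.25, limma adjusted p = 0.094 and 0.57). PR2 lay above PR1 by 5.65 for KLK5 and 4.07 for ADAMTS1 (limma adjusted p = 3.3e-05 and 1.1e-05). The filter fixed the order for ADAMTS1, so its p-values carry no weight. ACHE, the acetylcholinesterase gene, followed the same order, at 1.59, 1.14 and 0.68 FPKM in parental, 21.2, 37.0 and 21.5 in PR2, and a log2 difference of −0.51 in PR1 (limma adjusted p = 0.17). Other leading genes rose in both derivatives. GNG11, a G-protein subunit, rose by 3.89 ± 0.27 (SE) in PR2 and 2.83 in PR1, the actin bundler FSCN1 by 3.82 ± 0.26 and 3.33, EDIL3, a secreted integrin ligand, by 3.81 ± 0.33 and 2.70, and the adhesion molecule MCAM by 4.06 ± 0.35 and 2.14. EPB41L2, which links the membrane to the cytoskeleton, rose by 3.94 ± 0.37 and 2.67.

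Several genes that take up, store and convert retinol (vitamin A) fell. Retinol enters cells through STRA6 and is oxidised by dehydrogenases such as RDH10 and DHRS9, while DHRS3 reduces retinal back to retinol. Retinoic acid made this way binds receptors such as RARB, and the RARB gene is itself a classic target of retinoic acid. A promoter of RARB is shown because it carries a full element of the kind these receptors bind. It is the stretch of 250 bases before that start site in RefSeq (GRCh38.p14, chr3:25428013-25428262, plus strand), with the direct repeat in capitals.
RARB: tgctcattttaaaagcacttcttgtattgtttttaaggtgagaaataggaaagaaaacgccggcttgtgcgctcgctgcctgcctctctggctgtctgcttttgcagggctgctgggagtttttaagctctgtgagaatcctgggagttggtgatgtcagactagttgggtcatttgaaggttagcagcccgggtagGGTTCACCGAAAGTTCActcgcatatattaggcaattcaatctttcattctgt
The motif searched for was the DR5 retinoic acid response element on both strands, and the match lies 53 to 37 bases before the start. Only 26 of 35116 RefSeq promoters of this length held it (0.074%), and among the 10 retinoid genes with a promoter in the table RARB alone did. A match is a description of letters and says nothing of binding.

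Of 14 retinoid handling genes tested, 7 fell in PR2 and none rose, with a median log2 difference of −0.86 against 0.03 over all rows. In PR1 7 members fell against the same parental libraries (7.98% of all rows did), with a median of −0.74. With quantile normalization, without parental B or without PR2 A 1 member was called higher, and without the 3 A libraries 2 were. STRA6 was at 8.28, 19.3 and 21.8 FPKM in parental cells and at 0.096, 1.02 and 0.58 in PR2. DHRS9 went from 126, 187 and 108 FPKM to 0.695, 13.5 and 19.9, and DHRS3 from 143, 261 and 225 to 2.19, 37.7 and 31.9. PR2 A was the lowest library for STRA6, DHRS9 and DHRS3, and no PR2 library reached a parental one. The log2 fold changes were −3.42 ± 0.36 (SE) for STRA6, −4.10 ± 0.79 for DHRS9 and −3.68 ± 0.80 for DHRS3 (limma adjusted p = 0.00013, 0.0044 and 0.0088).

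RDH10 and RARB were added to this account after their values were seen. RDH10 was even across libraries, at 76.8, 63.8 and 69.3 FPKM in parental and 5.63, 6.04 and 7.13 in PR2, a log2 fold change of −3.29 ± 0.27 (SE, limma adjusted p = 2.9e-05). RARB was a low gene, at 2.08, 2.55 and 2.29 FPKM in parental and 0.068, 0.34 and 0.37 in PR2 libraries (−1.40 ± 0.16, limma adjusted p = 0.00019). In PR1 both fell less, by −1.35 and −0.71, and PR2 lay below PR1 by −1.94 and −0.69 (limma adjusted p = 0.00091 and 0.012). Members that missed the threshold included the receptor genes RARA and RARG, the binding protein gene CRABP2, CYP26B1, which breaks down retinoic acid, and RARRES2.

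**Figure D3:**
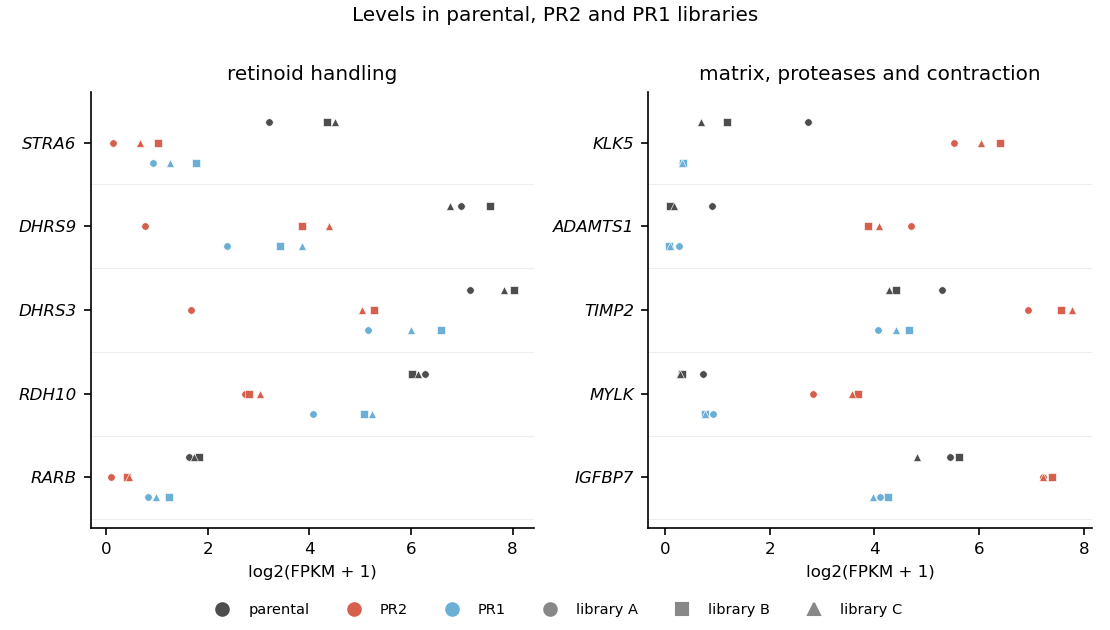
Dots give log2(FPKM + 1) of each parental (grey), PR2 (red) and PR1 (blue) library for 5 retinoid genes on the left and 5 genes of matrix, proteases and contraction on the right. Each retinoid gene shown is lower in PR2 than in parental libraries, while KLK5, ADAMTS1 and IGFBP7 are higher in PR2 than in either other group.

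The airway secretory list held 14 tested genes, of which 10 fell by at least 2-fold and none rose (1 was called higher at a pseudocount of 0.1), and its median log2 difference was −2.44 in PR2 and −0.88 in PR1. PIGR, the receptor that carries antibodies across epithelium, was at 17.8, 38.2 and 28.9 FPKM in parental cells and at 0.12, 1.13 and 1.34 in PR2 (−3.98 ± 0.62 SE, limma adjusted p = 0.0013). SLPI, a secreted inhibitor of leukocyte proteases, went from 388, 956 and 507 FPKM to 45.1, 132 and 121 (−2.66 ± 0.44, limma adjusted p = 0.0020). The BPI-fold genes BPIFA1 and BPIFB1 of this list fell too. Surfactant and alveolar genes were split, with 4 of 10 tested lower, 2 higher and a median of −0.28. Those that fell were the surfactant gene SFTPB, the phosphate transporter gene SLC34A2, ETV5 and ABCA3, the last in a call lost without parental B, parental C or any single PR2 library (highest limma adjusted p = 0.12). CAV1 rose, and so did LPCAT1, an enzyme of surfactant lipid, whose call was lost without parental B, parental C, PR2 B, PR2 C or any single PR1 library (highest limma adjusted p = 0.16). NAPSA, LAMP3, CTSH and HOPX missed the threshold. SLC34A2 was at 128, 138 and 148 FPKM in parental and 5.70, 15.3 and 11.1 in PR2 libraries, with a log2 difference of 0.33 in PR1 (limma adjusted p = 0.57) and a PR2 level below PR1 by −3.99 (limma adjusted p = 6.0e-05).

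Mucin genes did not move as 1 block. Among 15 tested genes for mucins and the enzymes that build their sugars, 6 fell and 4 rose. The falls included the sugar enzymes ST6GALNAC1 (−3.17 ± 0.41 SE, limma adjusted p = 0.00049) and B3GNT6 (−2.95 ± 0.24, limma adjusted p = 3.1e-05). GALNT5, which starts sugar chains, rose by 1.15 ± 0.21 (limma adjusted p = 0.0033). The count of risers was less firm, at 1 without parental C and 2 without parental A, parental B, PR2 B or PR2 C. Surface antigens divided in the same way. CEACAM6 fell from 1093, 1115 and 863 to 97.3, 232 and 376 FPKM and LY6E from 673, 1054 and 985 to 220, 276 and 247, while mesothelin (MSLN) rose from 35.8, 34.2 and 37.1 to 182, 269 and 205 (2.57 ± 0.22, limma adjusted p = 4.2e-05).

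Of 26 transcription factors of the lung lineage, 7 fell and 5 rose (3 when only rows at 5 FPKM were tested). Among all rows 9.83% fell and 13.6% rose. SOX2, a factor of airway progenitors, was at 33.3, 51.4 and 35.7 FPKM in parental and 1.60, 2.60 and 2.18 in PR2 cells (−3.70 ± 0.27 SE, limma adjusted p = 1.4e-05). SPDEF, which drives goblet cell genes, went from 25.1, 37.8 and 17.9 FPKM to 1.04, 1.49 and 2.09 (−3.42 ± 0.29, limma adjusted p = 3.7e-05). The pioneer factor FOXA1 fell from 42.1, 46.9 and 28.6 FPKM to 9.79, 10.9 and 11.2, and CEBPA from 6.83, 11.1 and 10.2 to 2.11, 1.94 and 1.33. In PR1 none of these 4 passed the test (log2 differences −0.39, 0.59, −0.07 and −0.09), and PR2 lay below PR1 for each, by −3.31, −4.01, −1.69 and −1.79 (limma adjusted p from 2.3e-05 to 0.00049). ID2 (2.41 ± 0.40), SOX9 (1.37 ± 0.26) and GATA6 (0.97 ± 0.15) rose in PR2. NKX2-1 and FOXA2, which also define lung epithelium, missed the threshold.

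Among matrix and basement membrane genes rises outnumbered falls. Of 21 integrins and laminins 12 rose, with a median log2 difference of 1.0, and ITGB3 fell (2 members fell without parental C). The laminin that anchors epithelial cells to the basement membrane includes LAMA3 and LAMB3, and both rose. LAMA3 was at 8.07, 4.03 and 4.61 FPKM in parental and at 34.8, 25.9 and 29.4 in PR2 libraries (2.28 ± 0.31 SE, limma adjusted p = 0.00065). The β3 integrin gene ITGB3 went the other way, from 7.86, 27.9 and 13.6 to 0.19, 2.44 and 1.86 FPKM (−2.77 ± 0.53, limma adjusted p = 0.0041).

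Among 12 collagen genes 4 rose and none fell. COL4A1 and COL4A2, which form the network of basement membranes and lie side by side in the genome, were at 0.60, 0.27 and 0.28 and at 6.46, 3.87 and 2.59 FPKM in parental cells. In PR2 they were at 8.29, 8.61 and 10.9 and at 52.3, 61.7 and 54.2. COL17A1, a collagen of hemidesmosomes, rose by 2.02 ± 0.33 (SE, limma adjusted p = 0.0018), and the fibrillar genes COL1A1 and COL5A1 missed the threshold. Of 18 matricellular genes 13 rose, with a median of 1.23. Tenascin C (TNC) was the most even of these, at 15.8, 9.18 and 13 FPKM in parental and 64.6, 62.5 and 62.6 in PR2. LTBP3 was the member that fell, a call lost on leaving out PR2 A, PR2 C, parental C or parental B (highest limma adjusted p = 0.11), while 2 members fell without parental A, PR1 A, PR2 B or the 3 A libraries.

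Proteases and their inhibitors shifted in make-up. Among 23 metalloproteases and inhibitors 13 rose (7 when only rows at 5 FPKM were tested), with a median of 0.96, and MMP1 and MMP13 fell. The inhibitor TIMP2 went from 38.2, 20.3 and 18.5 to 121, 188 and 217 FPKM (2.76 ± 0.30 SE, limma adjusted p = 0.00017) and MMP24 from 1.36, 0.75 and 0.76 to 9.80, 10.2 and 11.6. MMP1, a collagenase, was at 62.9, 29.1 and 8.50 FPKM in parental and 0.51, 0.89 and 0.89 in PR2 cells (−3.91 ± 0.57, limma adjusted p = 0.00094). The fall of MMP13 was lost on leaving out parental A, parental B or PR2 C (highest limma adjusted p = 0.084) and without the 3 A libraries (0.11). Serine proteases and serpins were split, with 7 of 24 higher and 7 lower. PLAUR, the urokinase receptor, rose from 30.5, 18.4 and 18.8 to 75.2, 73.8 and 71.0 FPKM, while the membrane protease TMPRSS4 fell from 120, 186 and 175 to 0.85, 5.08 and 10.6, and SERPINA3, an acute phase inhibitor, fell by 2.76 on the log2 scale.

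Many genes of actin cables and caveolae rose, and none of those listed fell with the main settings. Of 28 actin and contractility genes 16 rose, with a median of 0.88, and of 18 caveolar and LIM-domain genes 12 rose (7 when only rows at 5 FPKM were tested), with a median of 1.0. In the first list 1 member was called lower without PR2 A or without the 3 A libraries. In the second 1 was without parental A or the 3 A libraries, with no filter on low values or with the letter as a block. MYLK, the kinase that switches on myosin II, was at 0.65, 0.26 and 0.21 FPKM in parental and 6.12, 11.9 and 10.9 in PR2 cells (2.92 ± 0.22 SE, limma adjusted p = 2.0e-05). CAV1, the main caveolar coat protein, went from 95.1, 23.4 and 17.5 to 360, 476 and 520 FPKM, and its coat partner PTRF from 38.6, 10.2 and 9.29 to 144, 124 and 112. Parental A was the highest parental library for these genes, and no groups overlapped. In PR1 the log2 difference was 0.37 for MYLK and 0.45 for PTRF (limma adjusted p = 0.31 and 0.63). PR2 lay above PR1 by 2.55 and 2.49 (limma adjusted p = 7.4e-05 and 0.010). MYLK reached 1 FPKM in PR2 libraries alone, so the filter fixed its order and its p-values carry no weight. Other members rose in PR1 too, 8 of the 28 actin genes and 6 of the 18 caveolar and LIM-domain genes (7.56% of all rows did). Their lists had PR1 medians of 0.31 and 0.41, and 0 and 1 members fell in PR1.

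The list of YAP and TEAD targets, which also holds genes of the factors themselves, had 30 tested members. Of these 19 rose, with a median of 0.99, and 2 fell, of which 1 remained without parental A, parental B or any single PR2 library. In PR1 15 members rose and 2 fell, with a median of 0.68 (7.56% of all rows rose and 7.98% fell). ANKRD1, a nuclear and sarcomeric protein, was at 11.7, 2.88 and 2.93 FPKM in parental and 62.6, 45.1 and 52.1 in PR2 cells. THBS1, the secreted matrix protein thrombospondin, was counted with the matricellular genes and not in this list, and went from 38.9, 4.76 and 6.71 to 244, 187 and 246 FPKM (4.22 ± 0.57 SE, limma adjusted p = 0.00063). CRIM1, a membrane protein that binds growth factors, went from 8.52, 5.27 and 6.07 to 45.9, 32.0 and 43.4 FPKM. FOXF2 fell by 1.10 ± 0.12 on the log2 scale (SE, limma adjusted p = 0.00013). That p-value carries no weight, since FOXF2 passed the filter through parental libraries alone. Among the factors themselves TEAD1 rose by 0.99, and leaving out PR2 C, PR2 A, parental C or parental B ended that call (highest limma adjusted p = 0.090). The genes for YAP1 and for TEAD2 and TEAD3 missed the threshold, and WWTR1, which encodes TAZ, fell by 0.53 in a call that was lost without parental A, parental B or any single PR2 library (limma adjusted p of up to 0.11).

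Promoters of 3 risers are shown for the letters that TEAD factors or serum response factor are known to bind. They are the 250 bases before the RefSeq start (GRCh38.p14), chosen after the values were seen. ANKRD1 (chr10:90921088-90921337, minus strand) and THBS1 (chr15:39580829-39581078, plus strand) have the TEAD motif GGAATG in capitals, and MYLK (chr3:123620549-123620798, minus strand) has a CArG box in capitals.
ANKRD1: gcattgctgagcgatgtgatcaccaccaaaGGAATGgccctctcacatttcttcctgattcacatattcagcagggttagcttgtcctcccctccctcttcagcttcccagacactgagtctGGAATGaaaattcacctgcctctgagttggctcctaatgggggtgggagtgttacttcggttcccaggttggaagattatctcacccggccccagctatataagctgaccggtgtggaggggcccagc
THBS1: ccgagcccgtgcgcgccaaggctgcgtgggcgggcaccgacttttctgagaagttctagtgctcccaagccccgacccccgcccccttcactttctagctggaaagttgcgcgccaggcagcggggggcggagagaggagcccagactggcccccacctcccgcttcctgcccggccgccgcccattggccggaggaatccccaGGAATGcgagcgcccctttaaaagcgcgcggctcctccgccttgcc
MYLK: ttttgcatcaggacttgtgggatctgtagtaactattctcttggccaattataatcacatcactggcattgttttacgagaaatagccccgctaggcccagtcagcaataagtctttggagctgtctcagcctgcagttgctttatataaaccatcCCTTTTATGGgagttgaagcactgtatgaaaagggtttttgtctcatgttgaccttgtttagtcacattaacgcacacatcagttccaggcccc
The motif GGAATG, searched on both strands, stood 220 to 215 and 128 to 123 bases before the start of ANKRD1 and 46 to 41 before that of THBS1. It was in 4175 of 35116 promoters (11.9%), in 12.7% of the tested genes with a promoter and in 10 of 23 members of the YAP and TEAD list. That list gathers known targets of these factors, so a high share follows from its choice. The 10 include FOXF2, which fell, and YAP1, which missed the threshold. The CArG box stood 94 to 85 bases before the MYLK start. It was in 1.16% of promoters, in 1.43% of those of tested genes and in 5 of 24 actin genes, among them ACTN1 and CNN2, which missed the threshold. Here too a match is a description of letters and says nothing of binding.

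**Figure D4:**
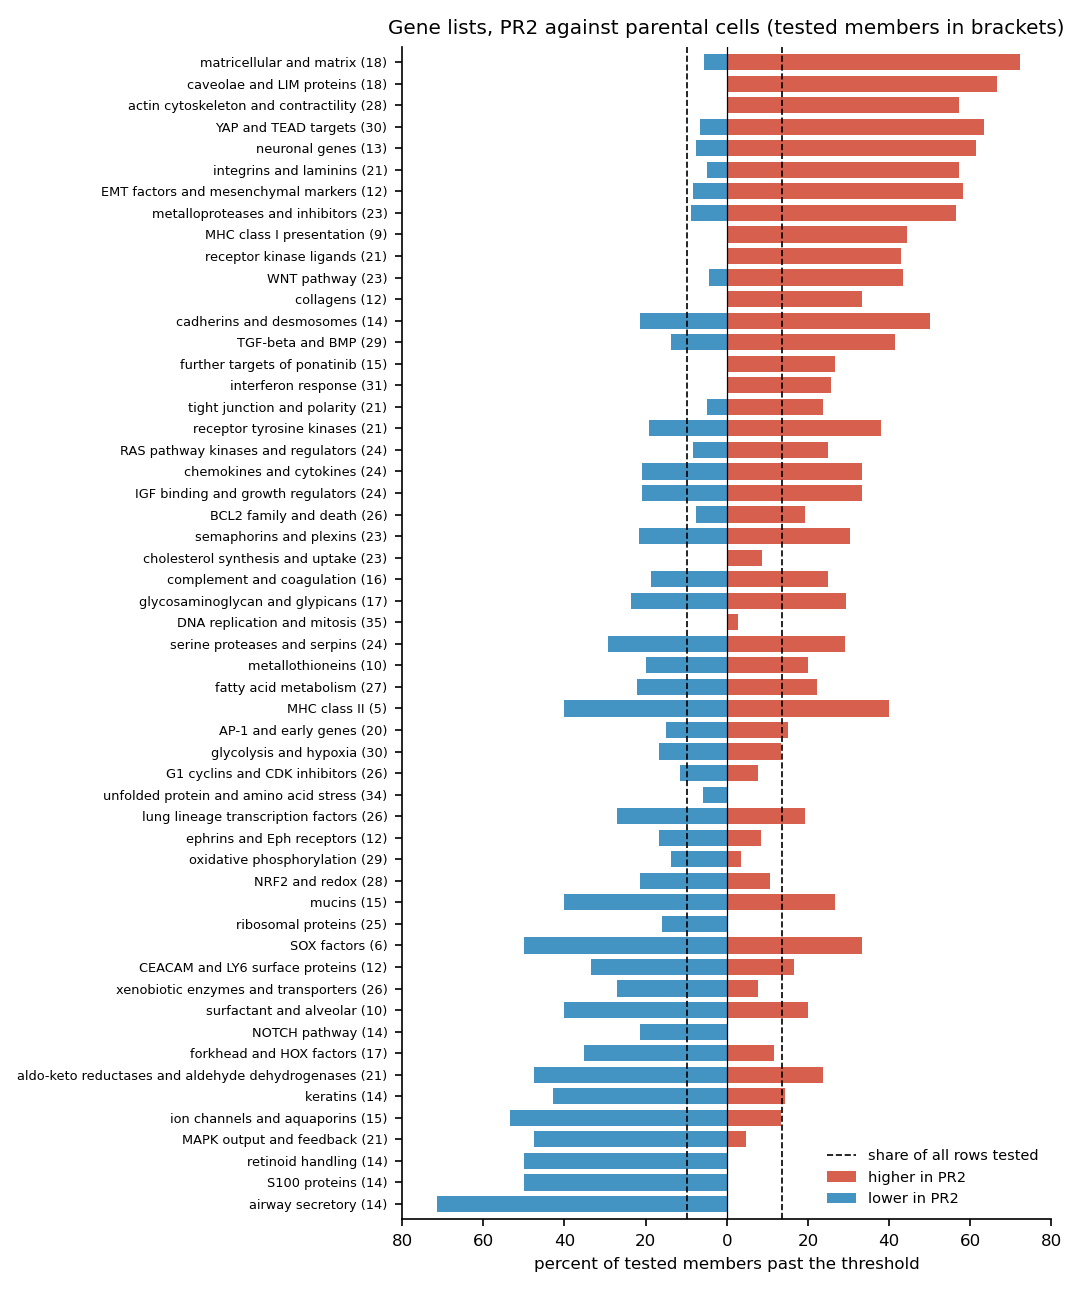
Bars give the percent of each list's tested members that passed the limma threshold, lower in PR2 to the left and higher to the right, with the number tested in brackets. Dashed lines mark the shares over all rows tested (9.83% lower, 13.6% higher), and matrix, caveolar, actin and YAP lists lie at the top while airway secretory, S100 and retinoid lists lie at the bottom.

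Cell contact genes did not shift in 1 direction. Of 14 cadherin and desmosome genes 7 rose and 3 fell. N-cadherin (CDH2), often taken as a mesenchymal marker, rose from 1.33, 0.32 and 0.16 to 11.6, 7.39 and 6.49 FPKM (2.60 ± 0.39 SE, limma adjusted p = 0.0011). The epithelial desmosome genes DSP, DSG2 and DSC2 also rose, by 1.78, 1.37 and 1.28, and E-cadherin (CDH1) missed the threshold. CTNNB1, which encodes β-catenin, fell from 151, 115 and 144 to 47.0, 53.6 and 69.4 FPKM (−1.26 ± 0.21, limma adjusted p = 0.0020). Among 14 keratins KRT7 and KRT80 rose, and without the 3 A libraries 4 members rose. KRT7, a keratin of gland epithelium and the most abundant of those named, went from 1798, 1227 and 1553 to 2973, 3548 and 3462 FPKM. The 6 that fell included KRT6A (53.8, 14.4 and 5.75 against 0.91, 0.99 and 1.11 FPKM) and KRT23 (4.10, 5.81 and 5.19 against 0.060, 0.11 and 0.071).

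Among ERK output genes falls outnumbered rises. Of 21 tested, 10 fell, with a median of −0.85, against a median of −0.11 in PR1, in which 2 fell. FOSL1 was the riser, and its call was lost on leaving out PR2 A, PR2 C, parental C or parental B (highest limma adjusted p = 0.11). DUSP6, the phosphatase of ERK, was at 104, 148 and 191 FPKM in parental and 6.29, 5.94 and 14.4 in PR2 libraries. SPRY4, a Sprouty inhibitor, went from 9.99, 13.8 and 15.5 to 0.85, 0.48 and 0.85 FPKM, and ETV4 from 25.7, 57.5 and 63.3 to 4.76, 3.33 and 4.24. For these 3 genes PR2 lay below PR1 by −2.76, −2.41 and −2.56 (limma adjusted p = 0.00055, 2.9e-05 and 0.00048). The early genes MYC, EGR1 and DUSP1 missed the threshold. Upstream, RASA3 and RASAL2, which switch RAS off, rose by 1.09 and 1.11, and KSR1, a scaffold for RAF and MEK, fell by 0.81 (limma adjusted p = 0.0014, 0.0034 and 0.010). Of 24 genes of the RAS pathway 6 rose (13.6% of all rows did). Without parental B or PR2 B 3 rose, and without PR2 C 2 did. The other risers were RASA1, a further inhibitor of RAS (0.58), the RAS relatives RRAS and RRAS2 (0.82 and 0.62) and MAP2K1, which encodes MEK1 (0.59), each in a call lost without PR2 C and at least 1 parental library in turn (highest limma adjusted p = 0.17). RASSF5, a RAS-binding protein gene, fell by 0.94.

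Receptor kinases changed in their make-up, with 8 of 21 higher and 4 lower (3 higher and 2 lower when only rows at 5 FPKM were tested, and 2 lower without parental B). MERTK, a relative of AXL, rose from 0.97, 1.21 and 2.09 to 3.56, 6.36 and 8.14 FPKM (1.5 ± 0.30 SE, limma adjusted p = 0.0057). PTK7, a pseudokinase of WNT signalling, rose from 15.5, 17.3 and 11 to 33.7, 48.3 and 42.0, and KIT, the stem cell factor receptor, from 0.534, 0.271 and 0.275 to 2.78, 2.21 and 3.04. The insulin receptor gene INSR fell from 3.66, 4.56 and 2.96 to 0.68, 1.76 and 1.67 FPKM. RET fell from 13.1, 14.8 and 15.7 to 8.89, 8.95 and 7.66, and this row does not separate the fusion from normal RET. MET, at 110, 66.7 and 84.9 FPKM in parental and 89.7, 75.8 and 104 in PR2, overlapped between the groups (0.06 ± 0.21, limma adjusted p = 0.87).

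Of 21 ligands of receptor kinases 9 rose and none fell, with a median of 0.46. PDGFB went from 0.751, 0.411 and 0.880 to 4.05, 11.5 and 11.7 FPKM, and the neuregulin gene NRG1, whose product binds ERBB receptors, from 0.412, 0.145 and 0.0998 to 6.80, 2.71 and 3.58. GAS6 and PROS1, the ligands of the AXL family, both rose, PROS1 from 4.22, 4.47 and 4.64 to 10.6, 27.4 and 34.7 FPKM (2.06 ± 0.45 SE, limma adjusted p = 0.0090). A further list held kinases that ponatinib inhibits, all outside the receptor class but EPHA2 and EPHB4. Of its 15 tested genes 4 rose (13.6% of all rows did) and none fell with the main settings. The risers included YES1 (1.14), ABL2 (1.07) and ZAK (1.18). Without parental A or PR1 A, with no filter on low values or with median-of-ratios scaling 1 member was called lower. With the letter as a block 2 were.

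Developmental pathways were represented on both sides of the comparison. In the WNT list 10 of 23 rose (5 when only rows at 5 FPKM were tested), and FZD8 fell (2 members fell without parental A, PR1 A or PR1 C, and 3 without the 3 A libraries). The ligand gene WNT10A went from 10.6, 6.19 and 5.93 to 33.4, 42.6 and 27.5 FPKM, FZD2, a WNT receptor, from 3.71, 4.12 and 3.34 to 10.9, 24.2 and 24.4, and the secreted antagonist DKK1 from 11.8, 4.39 and 2.47 to 57.3, 64.2 and 70.8. In the NOTCH list 3 of 14 fell (9.83% of all rows did) and none rose (1 rose without PR2 A or the 3 A libraries). HES1, a NOTCH target, was at 63.3, 57.4 and 72.7 FPKM in parental and 6.17, 7.21 and 26.0 in PR2 cells, and NRARP, a NOTCH feedback gene, went from 7.27, 7.26 and 6.65 to 1.95, 1.72 and 1.5 (−1.57 ± 0.13 SE, limma adjusted p = 3.6e-05). Among 29 genes of TGF-β and BMP signalling 12 rose and 4 fell (2 fell without parental A, parental B or any single PR2 library). BMP4 went from 2.50, 1.89 and 2.06 to 26.5, 31.0 and 23.1 FPKM, the activin inhibitor FSTL3 from 27.6, 12.3 and 12.2 to 116, 110 and 129, and GDF15, a stress-induced family member, fell from 142, 586 and 927 to 41.5, 70.3 and 71.5.

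IGF binding proteins went in opposite directions. IGFBP7 rose from 42.3, 48.3 and 27.0 to 149, 168 and 148 FPKM, while IGFBP2 fell from 13.7, 21.2 and 25.4 to 0.525, 0.469 and 0.213 and IGFBP5 from 19.8, 6.18 and 7.27 to 0.644, 1.86 and 0.705. The log2 fold changes were 1.99 ± 0.21 (SE), −3.88 ± 0.21 and −2.42 ± 0.55 (limma adjusted p = 0.00012, 3.0e-06 and 0.011). The p-value of IGFBP2 carries no weight, since this gene passed the filter through parental libraries alone. PIK3R1, a regulatory subunit of PI3 kinase, fell by 1.32 ± 0.21 (limma adjusted p = 0.0015).

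Immune genes were mixed. In the list of 24 chemokines and cytokines 8 rose (3 when only rows at 5 FPKM were tested) and 5 fell. The neutrophil chemokines CXCL8 and CXCL1 fell, from 27.2, 18.8 and 26.2 to 4.97, 2.85 and 3.19 FPKM and from 7.74, 6.82 and 6.53 to 2.05, 1.70 and 1.63, and the membrane-bound chemokine CX3CL1 fell from 9.0, 14.8 and 14 to 0.38, 0.42 and 0.24. IL32 rose from 15.5, 4.98 and 4.95 to 79.4, 110 and 63.5, and IL23A, an interleukin 23 subunit, from 1.01, 0.83 and 0.75 to 4.45, 9.58 and 8.92 (2.16 ± 0.26 SE, limma adjusted p = 0.00030). For class I antigen presentation 4 of 9 genes rose and none fell (1 fell without parental A, parental C or the 3 A libraries), and β2-microglobulin (B2M) went from 920, 836 and 897 to 1605, 2516 and 3095 FPKM. For class II 2 of 5 tested genes fell and 2 rose, with a median of 0.53. CD74, the invariant chain, fell from 208, 284 and 253 to 40.9, 67.7 and 48.9 FPKM and the class II activator CIITA from 1.19, 1.42 and 1.68 to 0.14, 0.29 and 0.27. The lysosomal reductase gene IFI30 rose from 52.2, 49.9 and 32.5 to 83.0, 77.5 and 75.6 and RFX5, a factor for class II promoters, from 7.71, 8.70 and 6.56 to 12.6, 10.8 and 11.1. Both of these calls were lost without parental C or PR2 C (highest limma adjusted p = 0.058 and 0.086). Of 31 interferon response genes 8 rose (13.6% of all rows did) and none fell. Without the 3 A libraries 14 rose, without parental B 4 did, and without PR2 B or PR2 C 5 did. IFIT3 was among the 8, from 10.1, 6.71 and 8.85 to 20.5, 26.3 and 30.3 FPKM (1.48 ± 0.20, limma adjusted p = 0.00053). Without parental A or without the 3 A libraries 1 member fell.

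Among 14 S100 genes 7 fell and none rose (1 rose without parental A or the 3 A libraries), with a median of −0.87. S100A9, a subunit of calprotectin, was at 1093, 2344 and 1944 FPKM in parental and 6.82, 34.5 and 71.8 in PR2 cells, and its partner S100A8 was at 9.41, 13.7 and 2.63 against 0, 0.14 and 0.14. Of 15 channels and aquaporins 8 fell, or 5 without any single PR2 library and 4 when only rows at 5 FPKM were tested. AQP3, which passes water and glycerol, went from 53.7, 80.5 and 36.9 to 5.73, 13 and 9.25 FPKM, while the chloride channel CLIC3 rose from 12.3, 12.2 and 5.41 to 47.7, 87.8 and 66.5.

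Enzymes of carbonyl and lipid metabolism changed within families. Of 21 aldo-keto reductases and aldehyde and alcohol dehydrogenases 10 fell and 5 rose. ALDH3B2 fell from 5.81, 10.7 and 10.8 to 0.058, 0.15 and 0.28 FPKM, while its close relative ALDH3B1 rose from 14.4, 11.2 and 17.5 to 25.4, 51.3 and 60.3 (1.54 ± 0.30 SE, limma adjusted p = 0.0047). Reads of such close paralogs can be split between them by the quantification. FADS3, of the fatty acid desaturase family, rose from 9.09, 9.97 and 11.4 to 83.0, 86.3 and 70.6 FPKM (2.86 ± 0.22, limma adjusted p = 2.1e-05). CPT1A, the gate of mitochondrial fatty acid oxidation, fell from 4.52, 8.19 and 9.72 to 1.15, 0.59 and 0.54 (−2.23 ± 0.24, limma adjusted p = 0.00016). Of 30 genes of glycolysis and hypoxia 5 fell and 4 rose, with a median of −0.27, against 9.83% of all rows lower and 13.6% higher. Without the 3 A libraries 9 fell, without parental C, PR2 B or PR2 C 3 did, and without parental B 1 rose. LDHB, a lactate dehydrogenase subunit, went from 721, 795 and 794 to 350, 264 and 273 FPKM and the hexokinase gene HK1 from 45.1, 42.2 and 35.2 to 22.3, 17.6 and 16. PFKP, a phosphofructokinase gene, rose from 30.8, 29.8 and 29 to 102, 53.8 and 56.9, a call lost without parental B (limma adjusted p = 0.051), and the lactate transporter gene SLC16A1 rose by 0.82, though not past the threshold on leaving out PR2 A, parental B or the 3 A libraries.

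Genes best known from neurons rose in 8 of 13 tested cases and 1 fell, with a median of 1.46 in PR2 and −0.25 in PR1. The other 17 of the list's 30 entries lay below the filter on low values and were not tested. The microtubule protein MAP1B went from 0.60, 0.35 and 1.09 to 9.49, 4.03 and 3.08 FPKM, DPYSL2, a partner of tubulin, from 3.49, 1.95 and 3.31 to 16.5, 15.5 and 13, and CHRNB1, an acetylcholine receptor subunit, from 2.23, 2.28 and 2.16 to 8.02, 12.8 and 13. STMN3, a tubulin regulator, fell by 1.02 ± 0.21 (SE, limma adjusted p = 0.0070). Markers of neuroendocrine cells summed to 0.47 FPKM or less in every library, with CHGA and INSM1 at 0.

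Growth and housekeeping programmes showed few calls. Among 35 genes of DNA replication and mitosis TYMS alone rose, a call lost on leaving out PR2 A, PR2 C, parental C or parental B (highest limma adjusted p = 0.10), while without parental A 4 members rose and without the 3 A libraries 2 did. None of 23 cholesterol genes fell (1 fell without PR1 A) and 2 rose, or 1 without parental C or PR2 C. Of 34 stress genes (unfolded proteins and amino acid shortage) 2 fell and none rose. Without parental A 6 fell, without parental A, PR1 A and PR2 A together 15 did, and without parental C 2 members rose. The 2 were amino acid and creatine transporters. SLC6A14 was at 9.14, 3.82 and 2.95 FPKM in parental and at 0, 0 and 0.00556 in PR2, and SLC6A8 went from 31.9, 32.6 and 43.7 to 13.3, 17.8 and 16.8. RPS4X, 1 of the 4 ribosomal protein genes that fell among 25 (1 without parental B or parental C), was at 3479, 4462 and 4899 FPKM in parental and 1132, 1542 and 1476 in PR2 cells (−1.63 ± 0.21 SE, limma adjusted p = 0.00047).

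There were 13 rows listed at 0 in all PR2 libraries and at 1 FPKM or more in all parental ones, and none the other way round. Since the quantification may return 0 where it fails, no fold change is given. APBA2 and the neural progenitor factor SOX21 were listed at 0 in all PR1 libraries too, with SOX21 at 8.03, 11.4 and 7.82 FPKM in parental cells. TMEM176A (3.71, 8.04 and 9.85 FPKM in parental cells) and NLRP2 (8.51, 6.70 and 5.93) were at 0.034 and 0.0096 in 1 PR1 library each and at 0 in the rest. ACER3, a ceramidase gene, was at 0 in PR2 but above 1 FPKM in every PR1 library, at 3.59, 3.41 and 3.71 in parental and 2.10, 3.13 and 2.66 in PR1. SPRED1, the RAS inhibitor, was at 1.92, 7.12 and 2.12 in parental and 0.654, 2.35 and 1.42 in PR1. ACER3 and APBA2 were picked after their values were seen, since they stand outside the 6 highest rows of this kind.

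The positions of changed genes were uneven. RefSeq positions (GRCh38.p14) could be matched for 11290 of 11450 single-gene rows and were used for order only, since the authors' builds differ. Chromosome 18 had the highest share of risers, 50 of 151 tested genes (33.1%, 33 genes without parental B), against 13.6% of all rows, with 8 lower. The first 13 tested genes of its short arm, from USP14 to TGIF1, were all higher in PR2, with log2 differences of 0.72 to 1.64 and a median of 1.16. In PR1 the same 13 had a median of 0.28, 1 was called higher (7.56% of all rows were), and 10 of the 13 were higher in PR2 than in PR1 (11% of all rows were). That last comparison uses the PR2 libraries by which the run was found, so nothing is read from its share. The run includes YES1, a SRC family kinase, the myosin light chains MYL12A (91.9, 114 and 103 against 294, 308 and 351 FPKM) and MYL12B (194, 176 and 167 against 445, 404 and 452), and THOC1 (6.98, 5.36 and 5.51 against 12.4, 11.6 and 11.1), an RNA export factor. The calls for USP14, TYMS and LPIN2 were lost without single libraries (USP14 without parental B alone), and at least 10 of the 13 stayed called whichever library was left out. Beyond the first 25 genes, of which 18 were higher (median 1.06), the median of the next 25 was 0.17 with 5 higher, and that of the 25 after them, from GATA6 to ZNF24, was 0.42 with 11 higher.

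On chromosome 10 a run of 12 tested genes from ANXA8L1 to DKK1 was higher, with a median of 1.32 in PR2 and 0.23 in PR1. Among them the kinase gene MAPK8, which encodes JNK1, went from 3.91, 3.47 and 4.59 to 7.17, 7.56 and 9.09 FPKM. A run of 9 zinc finger and neighbouring genes on chromosome 19, ZNF85 to ZNF681, was higher with a median of 0.77, but 5 stayed called without PR2 C and 6 without parental B. In all 15 runs of at least 5 neighbours were found, 12 higher and 3 lower.

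Chromosome 17 sloped along its length. Of its 695 tested genes 160 were higher (23.0%), or 99 without parental B and 100 without PR2 C, and 56 were lower, or 31 and 34 without the same libraries. In steps of 100 genes, a division made after the values were seen, the first and second 100 each held 44 that were higher, with medians of 0.56 and 0.46, and the last 95 held 4, with a median of −0.19. PR1 sloped too and lay lower, at medians of 0.06 and 0.02 for the first and second 100 and −0.83 for the last 95. Chromosome 3 and X held the highest shares of falling genes, with 123 of 646 (19.0%, or 76 without PR2 B and 69 without PR2 C) and 73 of 353 (20.7%), against 9.83% of all rows. SOX2, described above, lies on chromosome 3. Copy number was not measured in these libraries, and its part in these positions was not tested.

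**Figure D5:**
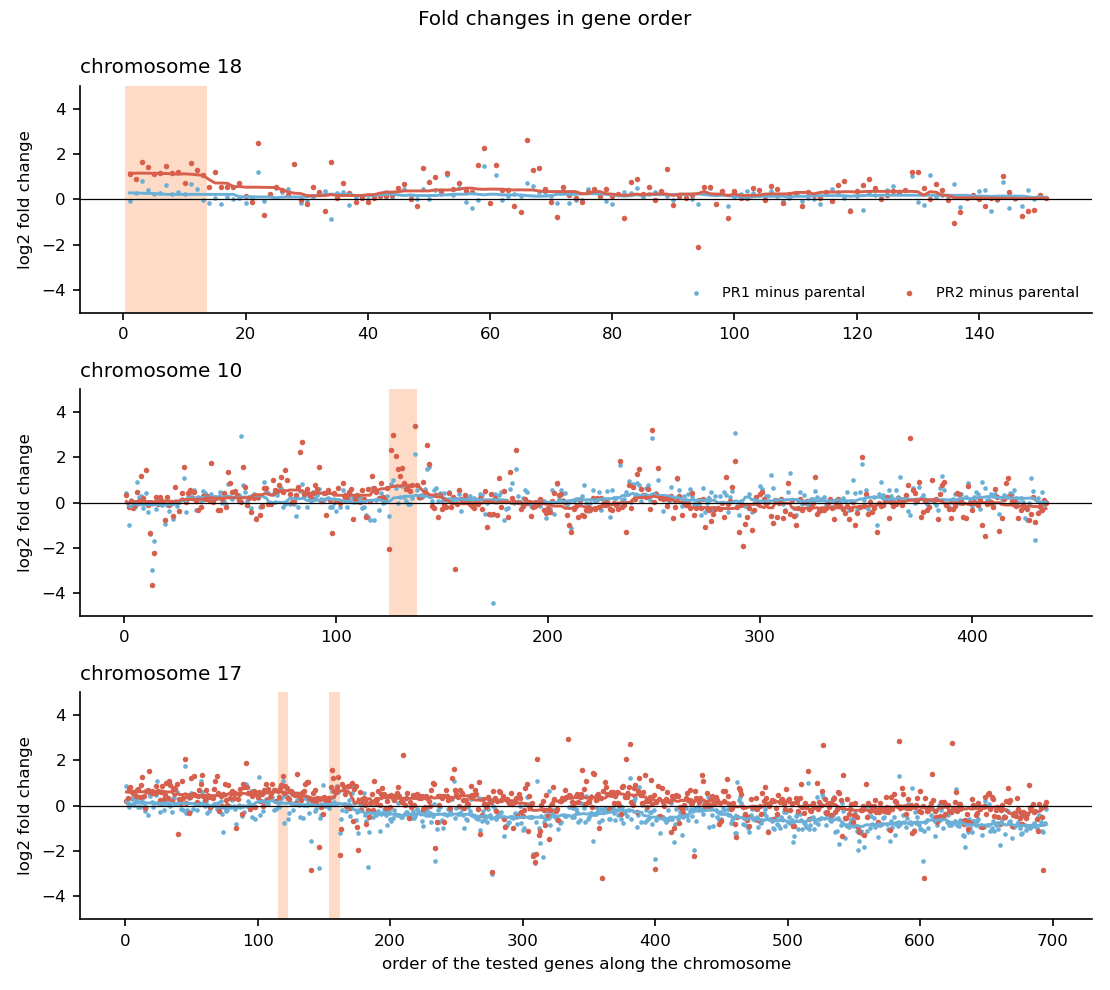
Points give the log2 fold change against parental cells of each tested gene in PR2 (red) and PR1 (blue), in gene order along chromosomes 18, 10 and 17, and lines give the running median of 25 genes. Shaded spans are runs of at least 5 neighbours called higher in PR2, such as the first 13 genes of chromosome 18 (median 1.16), and on chromosome 17 both lines slope down with PR1 below PR2.

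PR2 libraries did not vary alike. The median SD of log2(FPKM + 1) over 3 libraries was 0.183 in PR2 and 0.225 in parental cells, and 101 rows in PR2 had an SD above 1. PR2 A was the lowest library in 79 of those 101 rows, as in CXCL17, DHRS9 and DHRS3 above. In parental cells 97 rows had such an SD, and parental A was the highest library in 41 and the lowest in 46.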

How the data were processed

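RNA sequencing of total RNA from 9 libraries (3 each of parental LC-2/ad, PR1 and PR2) was analysed from 1 deposited table with a value per gene and library. The table's header names no unit, and its values were taken as FPKM as deposited by the authors, whose tools, per the submitters' processing notes, were TopHat2 2.0.14, Cufflinks 2.2.1 and Cuffdiff 2.2.1 with GRCh37/hg19. Neither read totals nor an annotation is stated among these sources, so no counting error can be given. Rows that join several overlapping genes in 1 locus (561 of those tested) were tested but not named.

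Values were used without further scaling as log2(FPKM + 1), which understates changes of low genes. Rows with at least 1 FPKM in at least 3 of 9 libraries entered limma 3.58.1 (R 4.3.3) with 1 mean per group, an intensity trend and all 9 libraries, which share 1 estimate of the spread. Tests were two-sided, with Benjamini-Hochberg adjustment over all 12011 rows and a threshold of 0.05. PR2 and PR1 are compared with the same parental libraries. The fit was tested on simulated data.

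Named genes had to pass the threshold with groups that did not overlap and a mean of at least 5 FPKM in the higher group for the 15 largest rises and the 15 largest falls. Up to 4 called members per direction were named for each of 54 gene lists (1036 different genes tested), with a fixed set of RET and RAS pathway genes, the 6 highest genes listed at 0 and the members of the 3 longest runs of neighbours. The members and lists were chosen with earlier results of these data known. Lists are described by counts and medians, with no set test. Alternatives were pseudocounts of 0.1 and 5, no filter, a filter at 5 FPKM, quantile and median-of-ratios scaling, 6 libraries only, the letter as a block, no trend, and leaving out each library or the 3 A libraries. Promoter sequences and gene order are from RefSeq (GRCh38.p14), matched by symbol. The letters were not treated as pairs in the main fit. Deviations of same-letter PR2 and parental libraries correlated at 0.296 for A, 0.417 for B and 0.014 for C. Some genes are not reported here.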

Additional observations from a re-analysis of the deposited data

Results flagged for a closer look

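In 14 of the named genes PR2 and PR1 both differed from parental cells at a limma adjusted p under 0.05 but in opposite directions. The difference between PR2 and PR1 passed the limma threshold in each. That follows from picking opposite differences from the same parental libraries in a shared fit, so it adds no support. In the genes that were lower in PR2 and higher in PR1, the log2 difference of PR2 minus PR1 was −4.77 for the mucin gene MUC5B, −3.86 for S100A4, −3.54 for the water channel AQP3 and −2.66 for the cadherin gene CDH11. It was −2.27 for the BMP receptor gene BMPR1B and −2.19 for the metal transporter SLC39A8. In the genes that were higher in PR2 and lower in PR1, it was 3.56 for WNT10A, 3.17 for IGFBP7, 2.98 for the interferon-induced gene IFI35 and 2.64 for the glutathione peroxidase GPX3. It was 1.92 for adrenomedullin (ADM), 1.84 for the metallothionein MT1A, 1.83 for DSE, an enzyme of dermatan sulphate synthesis, and 1.76 for P4HA2, which hydroxylates collagen. The calls of MUC5B, S100A4, MT1A, SLC39A8 and P4HA2 against parental cells were lost under at least 1 alternative.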

How the results depend on the processing

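Over 19 alternatives, no called gene among the 335 named ones changed sign, and 245 of 331 kept their call. Leaving out 1 library at a time gave 1805 to 2922 changed genes, with 1031 to 1667 higher and 774 to 1255 lower, and 996 to 1403 genes changed at least 2-fold, with 561 to 784 higher and 435 to 619 lower. Without parental B 1870 genes changed and 1068 were higher, and without PR2 C 1805 changed, 1031 were higher and 774 lower. With a filter at 5 FPKM, where fewer genes were tested, 1811 changed (1048 higher, 763 lower) and 750 changed at least 2-fold (292 lower). With a pseudocount of 5, which shrinks low genes, 485 changed at least 2-fold (276 higher, 209 lower). Without the 3 A libraries 1443 genes passed the 2-fold rule, and they include 1077 of the 1144.

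For letters A and B the same-letter deviations of PR2 and parental libraries correlated at 0.296 and 0.417. PR2 A with parental B gave −0.343, and PR2 B with parental A gave −0.350. The main fit ignores this pattern, and whether a letter marks matched libraries was not tested. With the letter as a replicate block 4113 genes changed (2347 higher, 1766 lower) and 1198 at least 2-fold (672 higher, 526 lower). PR2 C correlated better with parental B (0.059) than with parental C (0.014), so not every library correlated best with its own letter. Depth in reads is unknown, so the precision of low values cannot be given.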
